A study of Mus musculus with 24 samples.

Results

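The NF-κB subunits, kinases and inhibitors form a named set of 10 mouse genes, namely the subunit genes *Nfkb1*, *Nfkb2*, *Rela*, *Relb* and *Rel*, the inhibitor genes *Nfkbia*, *Nfkbie* and *Tnfaip3*, and the kinase genes *Chuk* and *Ikbkb*. They were chosen by name and located through the probe annotation of the Affymetrix mouse genome array, where 8 of the 10 were matched by 19 probe sets that carry a single gene symbol, among 45037 probe sets in all and 18193 genes with such a probe set. *Nfkb1* and *Chuk* were not analysed here. The arrays were hybridised with RNA from sorted thymocytes of 8 pools of mice. The 4 TLX1 pools were taken from double mutants, *IgHμ-TLX1* Tg *Prkdc* Scid/Scid (marked HOX11 positive in the labels), and the 4 control pools from *Prkdc* Scid/Scid mice without the transgene. By the labels all mice were outbred ICR and aged 6 to 8 weeks, whereas the methods state that some mice were younger than this and that the transgenic line was kept on another outbred stock before the cross. All mice carried the *Prkdc* Scid mutation, which blocks completion of V(D)J recombination, and each pool held 2 to 5 mice of the same sex. The female pools were numbers 1 and 4 of TLX1 and numbers 2 and 4 of the controls, with 4 male pools besides. The transgene was placed under the *IgHμ* promoter, which acts mainly in B cells and is only leakily active in thymocytes. Each pool gave 3 arrays, for DN1 (CD44+ CD25-), DN2 (CD44+ CD25+) and DN3 (CD44- CD25+) cells, which are successive stages of early T cell development that lack CD4 and CD8. That made 24 arrays, with 4 pools per genotype and stage.

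NF-κB transcription factors are dimers built from the products of *Rela*, *Rel*, *Relb*, *Nfkb1* and *Nfkb2*. In resting cells IκB proteins, among them those encoded by *Nfkbia* and *Nfkbie*, hold the dimers inactive, and the IκB kinase complex, whose catalytic subunits are encoded by *Ikbkb* and *Chuk*, marks the IκB proteins for destruction once a receptor has been engaged. *Relb* works mainly with the processed *Nfkb2* product in a slower branch of the pathway, and *Nfkbia* and *Tnfaip3* are themselves NF-κB targets that damp the response. In the thymus, NF-κB activity has been tied to signalling by the pre-T cell receptor and to the survival of developing thymocytes, while *Relb* is best known for its roles in dendritic cells and medullary epithelium.

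Several of the inhibitor and subunit genes carry κB-like motifs just upstream of their start, and the sequences are shown because these genes are classed as responsive to the factor they encode or restrain. The windows are the 250 bases before the RefSeq transcript start (build GRCm38.p6), written 5′ to 3′ on the gene's strand in lower case, with matches to the consensus κB motif, searched on both strands and with overlapping matches kept, in capitals. The *Rel* window lies at chr11:23770970-23771219 on the minus strand, the *Nfkbia* window at chr12:55492648-55492897 on the minus strand, the *Nfkbie* window at chr17:45555450-45555699 on the plus strand and the first *Tnfaip3* window at chr10:19015411-19015660 on the minus strand.
Rel: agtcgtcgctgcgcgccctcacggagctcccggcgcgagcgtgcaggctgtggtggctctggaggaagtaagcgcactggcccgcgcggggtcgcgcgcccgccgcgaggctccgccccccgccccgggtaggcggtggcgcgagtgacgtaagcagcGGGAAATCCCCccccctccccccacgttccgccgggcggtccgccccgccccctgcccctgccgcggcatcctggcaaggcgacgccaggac
Nfkbia: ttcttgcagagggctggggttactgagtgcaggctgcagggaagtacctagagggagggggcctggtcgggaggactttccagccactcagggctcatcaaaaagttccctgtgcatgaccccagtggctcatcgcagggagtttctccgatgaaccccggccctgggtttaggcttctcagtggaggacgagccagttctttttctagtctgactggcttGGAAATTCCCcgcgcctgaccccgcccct
Nfkbie: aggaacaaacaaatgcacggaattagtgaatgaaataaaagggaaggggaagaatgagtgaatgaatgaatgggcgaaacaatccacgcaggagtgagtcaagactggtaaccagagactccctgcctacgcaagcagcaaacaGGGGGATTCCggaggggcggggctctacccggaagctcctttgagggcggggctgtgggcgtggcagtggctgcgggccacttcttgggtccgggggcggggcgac
Tnfaip3: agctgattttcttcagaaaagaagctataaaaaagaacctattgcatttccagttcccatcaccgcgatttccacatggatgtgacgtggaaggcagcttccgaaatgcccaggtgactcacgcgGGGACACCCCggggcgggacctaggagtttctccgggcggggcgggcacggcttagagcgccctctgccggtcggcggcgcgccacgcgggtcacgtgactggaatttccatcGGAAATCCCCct
The match in *Nfkbia* began 29 bases before the start, that in *Nfkbie* 106 bases before it, those in *Tnfaip3* 125 and 12 bases before it, and those in *Rel*, which overlap each other, 92 and 91 bases before it. *Nfkb2* had a match in each of its 3 windows, among them GGGAATTCCC, which began 39 bases before the first start. The *Rela* window and the second *Tnfaip3* window held none. Thus 5 of the 6 genes with a window had at least 1 match, against 8.23% of all 27025 genes with a window. A match is a description of the letters, not of a bound site or of a cause.

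The RNA of the surface markers followed the sorting gates only in part. *Cd44* signals spanned 892 to 1913 at DN1, 80.3 to 153 at DN2 and 9.52 to 29.0 at DN3, and those of *Il2ra*, which encodes CD25, spanned 488 to 1171, 4270 to 5518 and 4323 to 5541. *Il2ra* was thus lowest in the CD25- DN1 cells but well above the array medians (15.1 to 24.3), and *Cd44* in the CD44+ DN2 cells lay far below its DN1 level. Mouse *Tlx1* signals were low on every array, at 4.51 to 11.4 in TLX1 and 2.75 to 17.3 in control pools. Whether that probe set detects the transgene is not given in the sources used here. Signals are linear MAS5 intensities, all arrays having a trimmed mean of 150, and log2 values below are of those signals with a floor of 1. Correlations between arrays of the same group lay between 0.905 and 0.960. The study's sorting records list many thymocytes outside the 3 gates for TLX1 pool 2 and control pool 3.

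Across the stages, most NF-κB genes were brightest at DN1, and *Nfkbie* was the exception that ran the other way. *Relb* fell 11.1-fold between DN1 and DN2, to signals near the array medians, *Nfkb2* 2.77-fold, *Nfkbia* 2.23-fold, *Rel* 1.80-fold and *Rela* 1.39-fold, whereas *Nfkbie* rose 1.87-fold over the same step and *Tnfaip3* rose only at DN3. *Ikbkb*, which encodes a kinase that activates the pathway, stayed within 0.16 log2 units over the 6 group means of its main probe set, against 3.67 log2 units for *Relb*. Stages were compared within pools with limma over the 27022 brightest probe sets, of which 59.7% differed between DN2 and DN1 at an adjusted p under 0.05 (28.5% higher and 31.2% lower at DN2). Of the 19 probe sets of the NF-κB genes, 18 passed the brightness filter, and of these 2 were higher and 12 were lower at DN2, 5 of the 12 belonging to *Nfkbia*. In the DN3 to DN1 comparison 3 were higher and 9 lower, with a background of 55.1% of all probe sets (30.1% higher and 25% lower). Between DN3 and DN2, where 11% of all probe sets were called, 6.93% of them as higher and 4.07% as lower, 5 were higher at DN3 and 0 were lower. With median centring of the arrays, 4 of the members' probe sets were called higher and 8 lower at DN2 than at DN1, and 1 higher and 2 lower at DN3 than at DN2. The count of 5 at the last step came down to 2 without TLX1 pool 1 or TLX1 pool 2, and to 3 without TLX1 pool 3, TLX1 pool 4, control pool 2 or control pool 4. By main probe set, the median log2 fold change of the 8 genes was -0.66 for DN2 over DN1, -0.55 for DN3 over DN1 and 0.085 for DN3 over DN2, and that of all 27022 probe sets was -0.058, 0.038 and 0.075. P-values of these stage comparisons rest on how much the stage changes vary between pools, with variances moderated by limma over all probe sets. Level differences between pools are taken out by the pool block, and each pool mixes several mice.

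**Figure D1:**
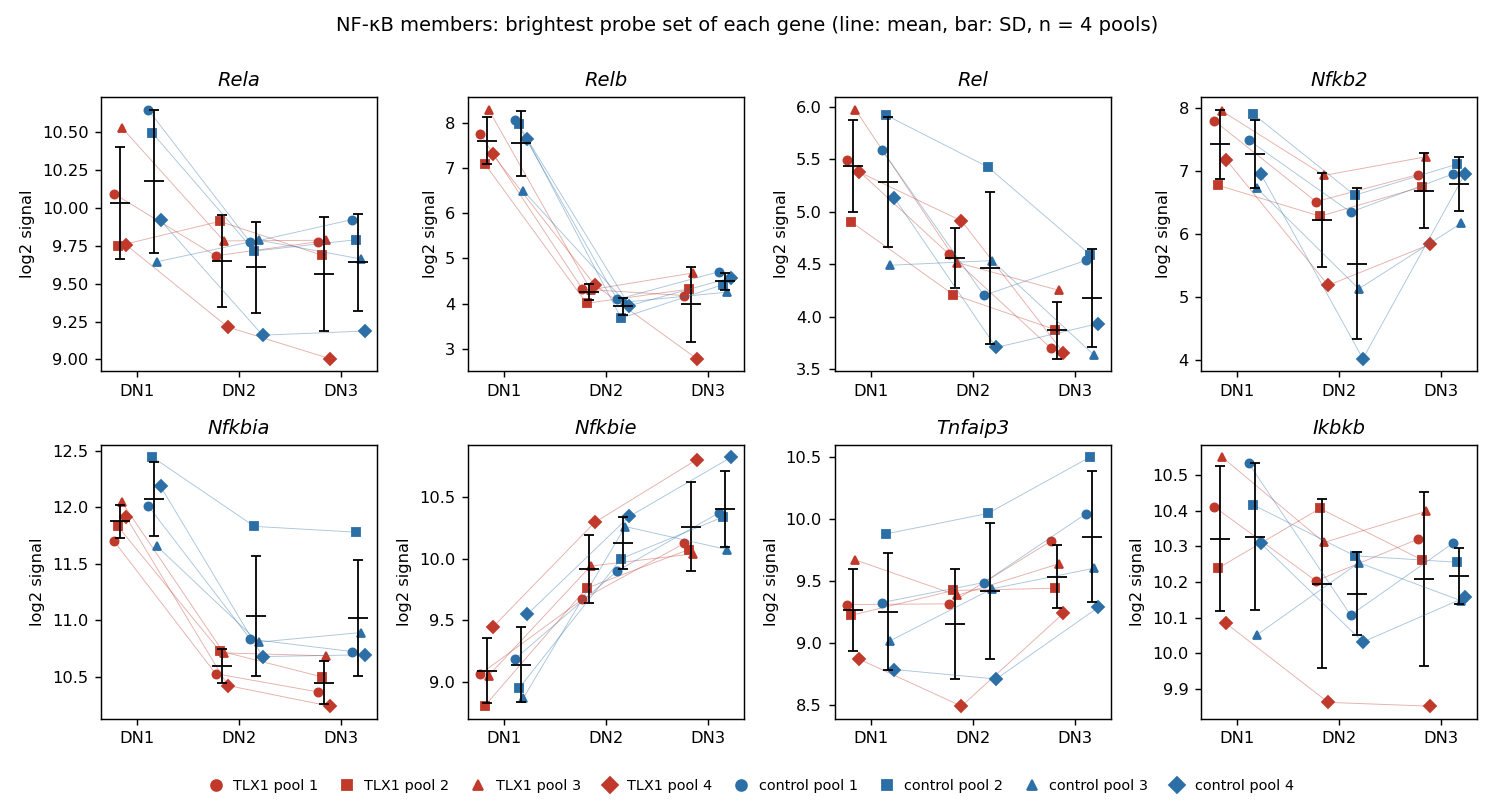
Log2 MAS5 signal (vertical axes) of the main probe set of each of the 8 NF-κB genes at DN1, DN2 and DN3, with TLX1 pools left of control pools, each pool as its own symbol, and the mean ± SD of 4 pools as line and bar. *Relb* at DN1 lies apart from both later stages, *Nfkbie* climbs from stage to stage, and control pool 2 stands above the other pools for *Nfkbia*.

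*Relb* (chr7:19606217-19629438 in GRCm38.p6), the subunit gene with the widest span, was measured by 1 probe set. At DN1 its signals in pools 1 to 4 were 213, 137, 312 and 157 in TLX1 and 268, 249.5, 90.2 and 198 in control cells. At DN2 they were 19.9, 16.1, 19.7 and 21.3 in TLX1 and 17.0, 12.8, 16.3 and 15.5 in control cells, and at DN3 they were 18.1, 19.9, 25.5 and 6.87 in TLX1 and 26.1, 21.4, 19.0 and 23.8 in control cells. All DN1 values lay above all DN2 and DN3 values, in both genotypes. The log2 fold change was -3.47 ± 0.22 (SE) for DN2 over DN1 (adjusted p = 1.22e-08 by limma, lower in 8 of 8 pools) and -3.33 for DN3 over DN1 (adjusted p = 1.53e-08), while DN3 and DN2 differed by 0.14 (adjusted p = 0.714). Since the later signals lay around the array medians of 15.1 to 24.3, the size of the fall depends on how low signals are treated, and with an offset of 32 added before log2 *Relb* changed by -2.19 for DN2 over DN1 and -2.12 for DN3 over DN1, both called. Taken by genotype, the change to DN2 came to -3.34 for TLX1 and to -3.60 for control pools (adjusted p = 1.5e-06 and 8.21e-07).

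*Rel* (chr11:23736847-23770969), which encodes c-Rel, the subunit typical of lymphocytes, was dim and was lower at both later stages than at DN1. DN1 signals were 44.9, 29.9, 62.8 and 41.5 in TLX1 and 48.2, 60.6, 22.5 and 35.1 in control pools. By DN3 they had come down to 13.0, 14.7, 19.0 and 12.6 in TLX1 and 23.2, 24.1, 12.4 and 15.3 in control pools, with DN2 values of 18.5 to 30.1 and 13.0 to 43.0. In TLX1 pools the DN3 values lay below all those of DN1, whereas in control pools the ranges of DN1 and DN3 overlapped. *Rel* was lower by -0.85 ± 0.17 at DN2 (adjusted p = 0.000627) and by -1.34 at DN3 (adjusted p = 1.08e-05), both against DN1, and the step between DN2 and DN3, -0.49, did not pass the threshold (adjusted p = 0.0775).

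*Rela* (chr19:5637442-5648134), which encodes the main activating subunit p65, moved least among the subunit genes. Its signals at DN1 were 1093, 860.3, 1478 and 865 in TLX1 and 1602, 1441, 800.1 and 967 in control pools. At DN2 they were 822, 963, 880.2 and 594 in TLX1 and 874, 840.4, 884 and 572 in control pools, and at DN3 514 to 883 and 583 to 971. The stages overlapped, but within pools *Rela* was lower by -0.48 ± 0.12 at DN2 (adjusted p = 0.00291, lower in 6 of 8 pools) and by -0.50 at DN3 (adjusted p = 0.00216) than at DN1. DN3 and DN2 differed by -0.025 (adjusted p = 0.908). Centring every array on its median raised the median change of all probe sets between DN1 and DN2 by 0.34 log2 units, and *Rela* then changed by -0.13 (adjusted p = 0.364).

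*Nfkb2* (chr19:46300994-46312400), which encodes p100, the precursor of p52 and itself an inhibitor of *Relb* dimers, dipped at DN2. Its main probe set gave 223, 109, 247 and 145 in TLX1 and 179.5, 241, 106 and 124 in control pools at DN1. At DN2 it gave 91.2, 77.7, 122 and 36.3 in TLX1 and 81.3, 97.9, 34.9 and 16.2 in control pools, and at DN3 it gave 123, 107, 149.5 and 57.1 in TLX1 and 123, 138, 71.7 and 124 in control pools. Every pool was lowest at DN2. The change was -1.47 ± 0.23 for DN2 over DN1 (adjusted p = 6.14e-05), -0.61 for DN3 over DN1 (adjusted p = 0.0339) and 0.86 ± 0.23 for DN3 over DN2 (adjusted p = 0.027). The DN3 over DN1 change kept its sign but missed the threshold without any 1 of TLX1 pools 1, 3 and 4 and control pools 1 to 3 (adjusted p = 0.0619 to 0.101), and the DN3 over DN2 change missed it without any 1 of the 4 TLX1 pools (adjusted p = 0.0526 to 0.0732). A second, dimmer probe set (24.8 to 75.7) also changed by -0.45 for DN2 over DN1 (adjusted p = 0.0101) and by 0.47 for DN3 over DN2 (adjusted p = 0.0421), but by 0.014 for DN3 over DN1 (adjusted p = 0.942), and it correlated with the first at only r = 0.422 over the 24 arrays.

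Among the inhibitors, *Nfkbia* (chr12:55489409-55492647), which encodes IκBα, fell to DN2 and held that level at DN3. Its main probe set gave 3337, 3646, 4224 and 3864 in TLX1 and 4126, 5568, 3234 and 4653 in control pools at DN1. At DN2 it gave 1477, 1698, 1677 and 1373 in TLX1 and 1824, 3642, 1792 and 1641 in control pools, and at DN3 1321, 1449, 1648 and 1211 in TLX1 and 1692, 3515, 1900.0 and 1658 in control pools. Control pool 2 was the highest of the 8 pools at every stage in all 5 *Nfkbia* probe sets, 15 of 15 values, and its DN2 and DN3 signals lay above the DN1 signal of control pool 3. *Nfkbia* was lower by -1.16 ± 0.094 at DN2 (adjusted p = 1.23e-07, lower in 8 of 8 pools) and by -1.24 at DN3 (adjusted p = 5.83e-08) than at DN1, and the other 4 probe sets were lower by -1.26 to -1.54 at DN2. DN3 and DN2 differed by -0.082 (adjusted p = 0.596).

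*Nfkbie* (chr17:45555700-45563169), which encodes IκBε, moved in the opposite direction to *Nfkbia*. Signals of its main probe set were 535, 447, 531 and 696 in TLX1 and 583, 495, 467 and 749 in control pools at DN1. They were 815, 867, 982 and 1256 in TLX1 and 955, 1025, 1227 and 1299 in control pools at DN2, and 1117, 1077, 1052 and 1787 in TLX1 and 1326, 1295, 1078 and 1813 in control pools at DN3. All DN1 values lay below all values of both later stages, which overlapped each other. *Nfkbie* was higher by 0.91 ± 0.084 at DN2 (adjusted p = 4.86e-07, higher in 8 of 8 pools) and by 1.22 at DN3 (adjusted p = 2.46e-08) than at DN1, and by 0.31 at DN3 than at DN2 (adjusted p = 0.0318, higher in 7 of 8 pools). This last step missed the threshold without any 1 of TLX1 pools 1, 2 and 4 and control pools 1, 2 and 4 (adjusted p = 0.0693 to 0.103). The second probe set was higher by 0.93 at DN2 than at DN1 and by 0.36 at DN3 than at DN2 (adjusted p = 0.00752, higher in 8 of 8 pools).

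*Tnfaip3* (chr10:19000910-19015410), which encodes the ubiquitin-editing enzyme A20, was level across DN1 and DN2 and rose at DN3. Its main probe set gave 634, 597, 813 and 467 in TLX1 and 641, 940.3, 518 and 441 in control pools at DN1, and 636, 686, 667 and 359 in TLX1 and 717, 1055, 692 and 418 in control pools at DN2. At DN3 it gave 904, 694, 797 and 604 in TLX1 and 1052, 1444, 776 and 624 in control pools. Pools overlapped between stages, but each of the 8 was higher at DN3 than at DN2. The change was 0.026 for DN2 over DN1 (adjusted p = 0.809), 0.41 for DN3 over DN2 (adjusted p = 0.00921) and 0.44 for DN3 over DN1 (adjusted p = 0.000577, higher in 7 of 8 pools). With median centring, *Tnfaip3* was already higher at DN2 than at DN1, by 0.37 (adjusted p = 0.00401), and its DN3 over DN2 change was 0.26 (adjusted p = 0.0986). A second *Tnfaip3* probe set, which correlated with the first at r = 0.272 over 24 arrays, changed by 0.15 for DN3 over DN2 (adjusted p = 0.672).

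*Ikbkb* (chr8:22659205-22706589), which encodes the kinase IKKβ, had the most even level of the NF-κB genes. Its main probe set gave 1362, 1208, 1499.7 and 1085 in TLX1 and 1482, 1367, 1061 and 1268 in control pools at DN1. At DN2 it gave 1179, 1357, 1270.5 and 931 in TLX1 and 1103, 1238, 1221 and 1047 in control pools, and at DN3 924 to 1349.5 in TLX1 and 1134 to 1268 in control pools. All 6 groups overlapped. The changes were -0.14 for DN2 over DN1 (adjusted p = 0.0986), -0.11 for DN3 over DN1 (adjusted p = 0.203) and 0.031 for DN3 over DN2 (adjusted p = 0.804), and their signs turned with median centring, where the DN2 over DN1 change was 0.20 (adjusted p = 0.0389). Without TLX1 pool 2 or without control pool 3 the same change was -0.19 (adjusted p = 0.0408) or -0.20 (adjusted p = 0.0139). Of the 4 other probe sets, all dim, the second and the fourth were lower at DN2 than at DN1, by -0.45 (adjusted p = 0.0218) and -0.68 (adjusted p = 0.0155), the third changed by -0.31 (adjusted p = 0.238), and the fifth, with a mean signal of 6.92, did not pass the filter. The other 4 correlated with the main one at r = 0.0274 to 0.538 over 24 arrays.

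**Figure D2:**
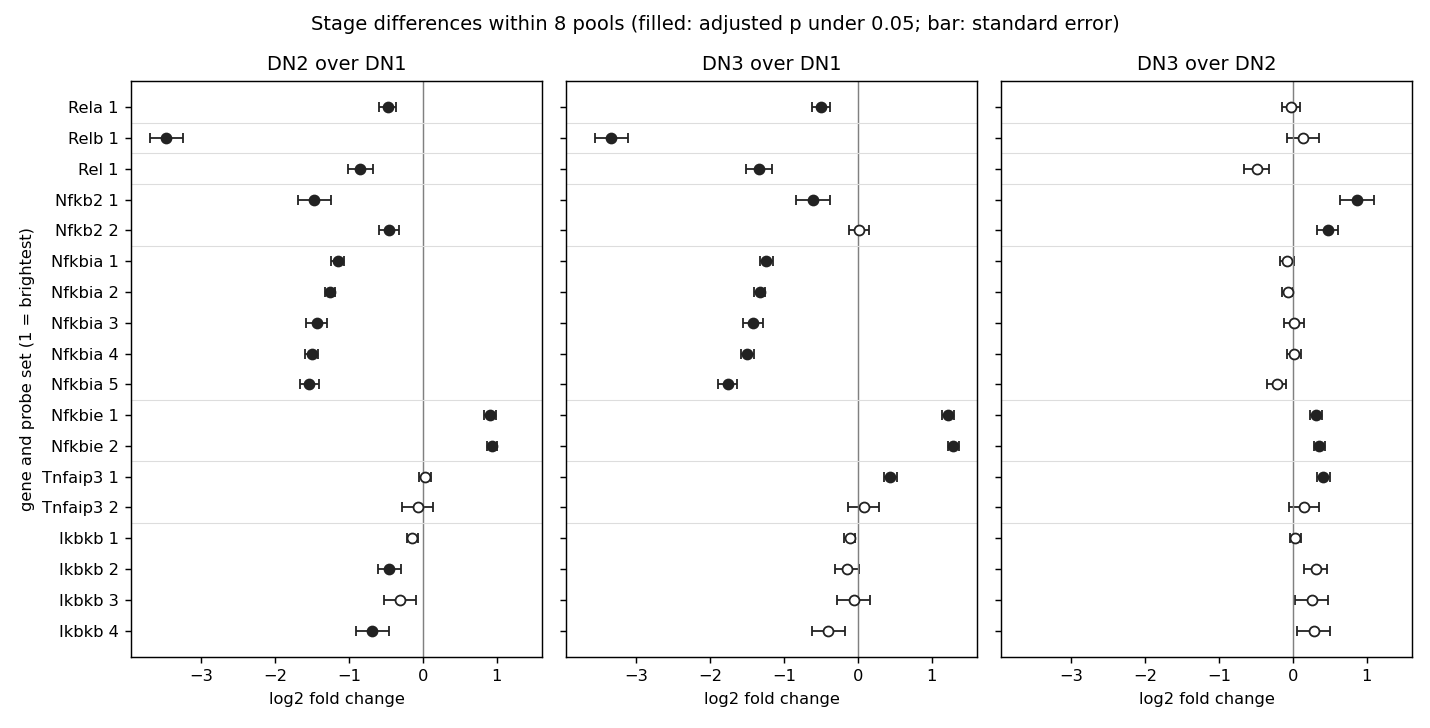
Log2 fold change between stages over 8 pools (horizontal axes, ± SE) for the 18 NF-κB probe sets past the filter, for DN2 over DN1, DN3 over DN1 and DN3 over DN2, filled where the limma adjusted p was under 0.05. *Relb* lies far to the left in the first and middle panels (-3.47 and -3.33), *Nfkbie* to the right, and the filled points of the DN3 over DN2 panel are *Nfkb2*, *Nfkbie* and *Tnfaip3*.

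Marker genes of some other cells moved with the same step. The 7 tested NK cell or innate lymphoid cell markers and the 9 tested myeloid or dendritic cell markers were all lower at DN2 than at DN1, with median log2 fold changes of -5.81 and -4.34, and 7 of 8 T-lineage markers were higher, with a median of 1.14. The T-lineage list includes *Il2ra*, which encodes the sort marker CD25, so its rise was set by the gates. Summed NK markers spanned 17884 to 28051 in TLX1 and 13875 to 32538 in control pools at DN1, 4661 to 5385 and 4318 to 5748 at DN2, and 3594 to 4545 and 4038 to 5219 at DN3. Summed myeloid markers spanned 11939 to 19771 and 7723 to 16364 at DN1, against 1046 to 1335 and 1161 to 1269 at DN2. Other classes were mixed at this step, beside 28.5% higher and 31.2% lower of all probe sets. Of 3 tested B cell markers 0 were higher and 1 lower, of 3 mast cell or basophil markers 1 and 2, and of 3 thymic epithelium or stroma markers 1 and 1. In that order, their summed signals had medians of 436, 1273 and 165 at DN1 and 333, 1600 and 642 at DN2. In bulk RNA, fewer cells of a type and less RNA per cell cannot be told apart, and the part of these cells in the falls of *Relb*, *Nfkb2*, *Nfkbia*, *Rel* and *Rela* was not tested. Within DN1, the pool with the lowest *Relb* signal in each genotype, TLX1 pool 2 (137) and control pool 3 (90.2), also had the lowest summed NK signal of its genotype (17884 and 13875) and the lowest summed myeloid signal (11939 and 7723). The match was not general, since TLX1 pool 4, with the next lowest *Relb* of its genotype (157), had the highest summed myeloid signal of the 8 pools (19771). Without these 2 pools *Relb* changed by -3.70 for DN2 over DN1, and 14 of the 18 probe sets were called.

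**Figure D3:**
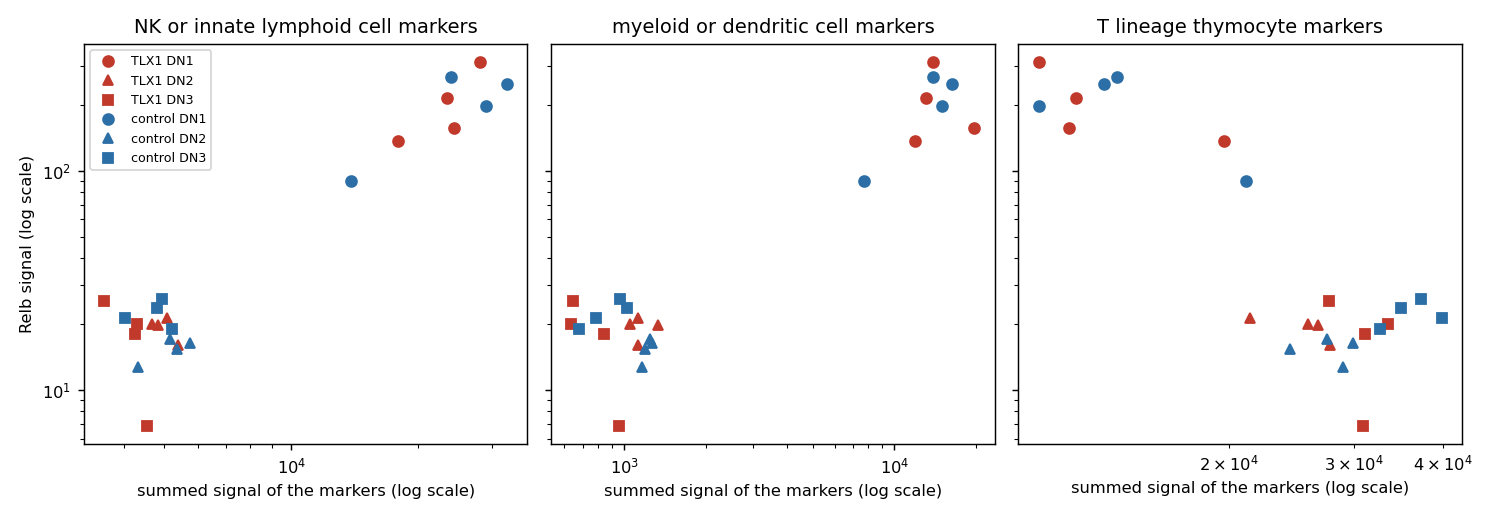
*Relb* signal (vertical axes, log scale) against the summed signal of NK, myeloid and T-lineage markers (horizontal axes, log scale) on the 24 arrays, TLX1 and control pools by colour and stage by symbol. DN1 arrays, at 90.2 to 312, lie apart from DN2 and DN3 arrays, at 6.87 to 26.1, on both axes of the NK and myeloid panels. The T-lineage sum includes *Il2ra*, which encodes the sort marker CD25.

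*Relb* had the widest range of group means, followed by *Nfkb2* (1.90 log2 units), *Nfkbia* (1.62), *Rel* (1.57), *Nfkbie* (1.31), *Tnfaip3* (0.70), *Rela* (0.61) and *Ikbkb*. The 5 other genes whose brightest probe set followed *Relb* most closely over the 24 arrays, among 12049 genes, were *Pim2* (Pearson r = 0.982), *Rbl2* (0.98), *Tmem62* (0.979), *Birc3* (0.979) and *Irak2* (0.978). *Birc3* and *Irak2* belong to the same pathway, the first encoding a ubiquitin ligase and the second a kinase of interleukin-1 receptor signalling. All 24 arrays share the step between DN1 and the later stages, so these values describe a common stage pattern. Among the NF-κB genes themselves, *Relb* and *Nfkbia* correlated at 0.831 over the 24 arrays but at 0.20 once the mean of each genotype and stage was removed, and *Relb* and *Nfkbie* at -0.837 and -0.153. *Rela* and *Ikbkb* correlated at 0.868 over all arrays and at 0.890 within groups, and *Rela* and *Tnfaip3* at 0.384 and 0.778. Arrays of a pool share its mice, and these coefficients describe 24 arrays only.

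More of the other pathway genes were lower than higher at DN2. Of 73 further receptors, adaptors, inhibitors and targets listed, 66 were measured and 62 tested, and at DN2 against DN1 6 were higher, 42 were lower and 14 did not pass, beside the 28.5% and 31.2% of all probe sets. Their median log2 fold change was -0.69. Among 15 receptor and ligand genes, 3 were higher and 9 lower: the interleukin-1 receptor gene *Il1r1* changed by -7.20 (adjusted p = 3.88e-09), and the lymphotoxin genes *Lta* and *Ltb* by -5.12 (adjusted p = 3.48e-07) and -2.12 (adjusted p = 4.63e-09), while their receptor gene *Ltbr* changed by 1.35 (adjusted p = 2.26e-06). Among 23 adaptors and upstream kinases, 2 were higher and 15 lower, among them *Traf1* (-4.34), *Traf5* (-2.16) and *Birc3* (-1.63), which act below tumour necrosis factor receptors, and *Malt1* (-1.55), which links antigen receptors to the kinase complex. *Il1r1* at DN2 read 1.98 to 3.26 in TLX1 and 1.76 to 12.5 in control pools, *Lta* 2.13 to 15.3 and 8.24 to 15.0, and *Traf1* 8.72 to 16.1 and 10.7 to 44.0, values mostly under the array medians. The sizes of their changes therefore depend on the floor of 1 and on noise at low signal.

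Of 10 further inhibitors, 0 were higher and 7 lower at DN2, with *Nfkbid* (-1.31), *Nfkbiz* (-1.38), the deubiquitinase gene *Cyld* (-1.25) and *Tnip1* (-0.73) as those with the smallest p. *Nfkbid* and *Nfkbiz* encode nuclear IκB proteins, and *Tnip1* a partner of A20. Of 14 target genes, 1 was higher and 11 were lower, led by the chemokine genes *Ccl3* (-5.28), *Ccl5* (-6.78) and *Ccl4* (-2.46) and by *Cd83* (-4.28), an activation marker of dendritic cells. *Ccl3*, *Ccl4* and *Ccl5* are also made by NK cells, whose markers fell at the same step. *Ccl3* and *Cd83* at DN2 also lay under or near the array medians, so the same limit holds for their sizes. Between DN3 and DN2, 2 of the 62 pathway genes were called higher and 4 lower, beside 6.93% and 4.07% of all probe sets, which is near the background. Those higher were *Birc2* (0.28, adjusted p = 0.0212) and *Ikbke* (0.42, adjusted p = 0.0275), and those lower were *Bcl3* (-1.61, adjusted p = 0.022), *Vcam1* (-5.25, adjusted p = 1.02e-07), *Cd83* (-2.78, adjusted p = 0.000398) and *Ccl5* (-3.20, adjusted p = 0.000974). At DN3 *Vcam1* read 0.347 to 6.73 in TLX1 and 0.612 to 1.68 in control pools, *Cd83* 0.866 to 1.26 and 0.951 to 5.58, *Bcl3* 2.58 to 14.3 and 1.69 to 9.81, and *Ccl5* 1.35 to 34.8 and 1.02 to 15.0, so these 4 differences end mostly under the array medians, and the difference of *Cd83* lies wholly at low signal.

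**Figure D4:**
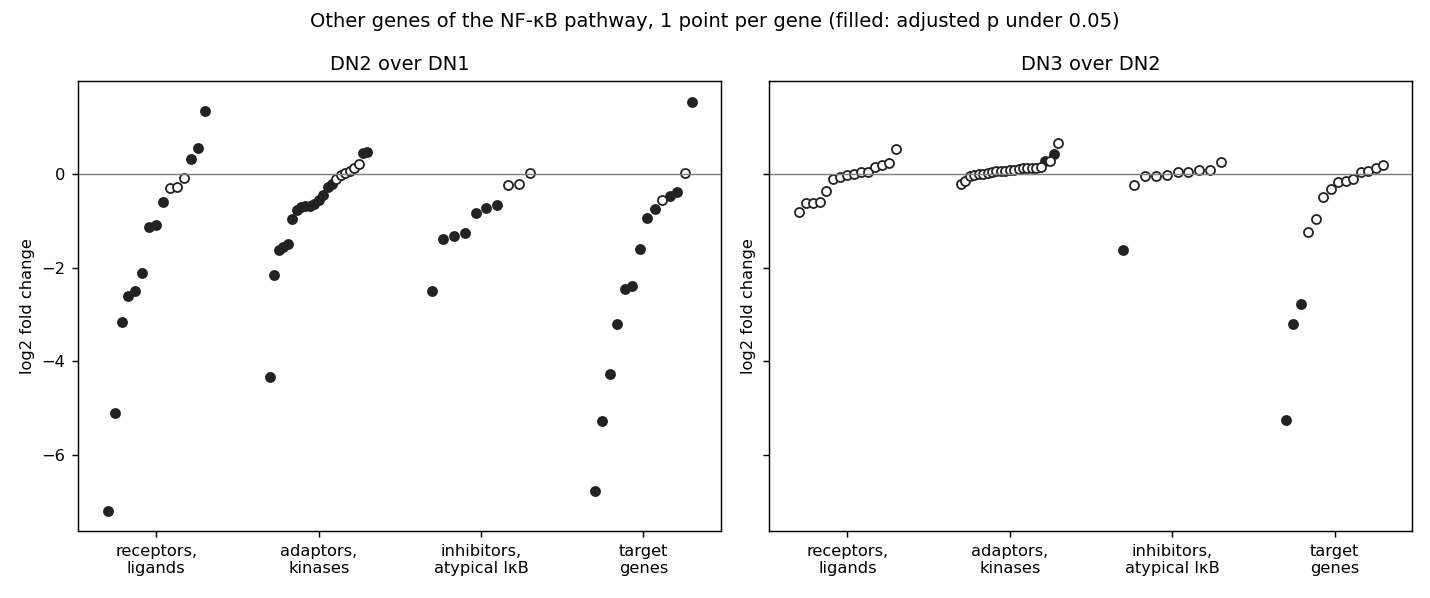
Log2 fold change over 8 pools (vertical axes) of 62 other pathway genes by class (horizontal axes), each point a gene, for DN2 over DN1 and DN3 over DN2, filled where the limma adjusted p was under 0.05. In the first panel 42 genes are called lower and 6 higher, and in the other panel 4 and 2.

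In TLX1 cells against control cells, none of the 18 NF-κB probe sets was called at any stage. The limma fit at each stage called 0.0037% of all probe sets at DN1, 0.0037% at DN2 and 0.0185% at DN3, and of the NF-κB probe sets 0, 0 and 0. At an unadjusted p under 0.05 the NF-κB counts were 1, 0 and 1, beside 1.72%, 3.53% and 6.02% of all probe sets, and the probe set past it at both stages was the third one of *Ikbkb*. The methods' t-test with a fold minimum of 1.4 and a p of at most 0.05 gave 1, 0 and 1, again this probe set, beside 1.01%, 1.46% and 3.04% of all probe sets, and 0 members at each stage after Benjamini-Hochberg adjustment. The paper, which used another filter and normalization before this test, names *Tnfaip3* and Ikk-β among the anti-apoptotic genes that were higher in TLX1 thymocytes. Here no *Tnfaip3* probe set passed the test at any stage. For *Ikbkb*, the gene of Ikk-β, the third probe set was higher in TLX1 cells and passed it unadjusted at DN1 and DN3. The far brighter main *Ikbkb* probe set did not pass it at any stage. Over the main probe sets of the 8 genes, the median log2 fold change came to 0.0045, 0.034 and -0.22 at the successive stages, and over all probe sets to 0.0081, -0.017 and 0.0090. At DN3 all 8 main probe sets were on the lower side in TLX1 cells, from -0.57 for *Nfkbia* to -0.0091 for *Ikbkb*, against 4 of 8 at DN1 and 3 of 8 at DN2. Marker lists leaned the same way at DN3, with 8 of 8 T-lineage markers (median -0.22), 8 of 9 myeloid markers (median -0.41) and 6 of 7 NK markers (median -0.13) on the lower side and none called, and their part in the shift was not tested.

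*Nfkbia* had the largest DN3 difference of these, with 1321, 1449, 1648 and 1211 in TLX1 pools against 1692, 3515, 1900.0 and 1658 in control pools. The groups did not overlap in this probe set, as was true of 3.89% of all probe sets at DN3 (1.25% lower in TLX1), and they overlapped in the other 4 *Nfkbia* probe sets. The log2 fold change was -0.57 ± 0.25 (SE, unadjusted p = 0.0524, adjusted p = 0.837 by limma), with -0.45 to -0.65 over all 5 probe sets. Control pool 2 carried much of that size, and without it the difference was -0.32 (adjusted p = 0.883). At DN1 the difference was -0.20 and at DN2 -0.44.

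The third *Ikbkb* probe set was higher in most TLX1 pools, whereas the main one was level. It read 73.6, 80.3, 56.9 and 67.4 in TLX1 pools against 45.8, 37.7, 45.5 and 30.9 in control pools at DN1, and 78.9, 73.9, 65.1 and 73.1 against 27.0, 49.4, 29.3 and 36.7 at DN3. At DN2 it read 76.9, 72.7, 60.8 and 19.6 against 38.5, 49.9, 22.0 and 35.0, where TLX1 pool 4 fell below all control pools. The groups did not overlap at DN1 and DN3, as was true, on the higher side, of 0.725% and 2.64% of all probe sets. The log2 fold changes were 0.81 ± 0.20 (SE, unadjusted p = 0.00313, adjusted p = 1) at DN1, 0.54 at DN2 and 1.07 ± 0.20 (unadjusted p = 0.00063, adjusted p = 0.340) at DN3, and none of the 3 was called. The main *Ikbkb* probe set, which is far brighter, differed by -0.0063, 0.029 and -0.0091. At DN1, DN2 and DN3 the second one averaged 6.69, 6.26 and 6.70 (log2) in TLX1 and 6.89, 6.41 and 6.59 in control pools. The fourth averaged 4.58, 4.17 and 4.70 in TLX1 and 4.89, 3.94 and 3.97 in control pools. The fifth, which did not pass the filter, averaged 3.26, 3.14 and 2.60 in TLX1 and 2.02, 1.38 and 1.01 in control pools.

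Among the other NF-κB genes no difference between the genotypes passed the threshold. *Relb* at DN2 averaged 4.26 ± 0.18 in TLX1 and 3.94 ± 0.18 in control pools on the log2 scale (SD, n = 4 pools each), a difference of 0.32 ± 0.15 (SE, adjusted p = 0.9996), and at DN3 3.99 ± 0.83 and 4.49 ± 0.20, a difference of -0.50, with signals around the array medians at both stages. *Nfkb2* at DN2 averaged 6.23 ± 0.75 in TLX1 and 5.53 ± 1.20 in control pools, the widest difference of the subunit genes, 0.70, and the groups overlapped. *Tnfaip3* at DN3 averaged 9.53 ± 0.25 in TLX1 and 9.86 ± 0.53 in control pools by its main probe set, a difference of -0.32, whereas its second probe set gave 26.2, 26.4, 22.6 and 29.6 against 8.58, 24.6, 10.5 and 23.0, a difference of 0.80 ± 0.35 (SE, adjusted p = 0.831). *Rel* differed by 0.15, 0.091 and -0.30 at DN1, DN2 and DN3, *Rela* by -0.14, 0.039 and -0.077, and *Nfkbie* by -0.048, -0.21 and -0.14.

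**Figure D5:**
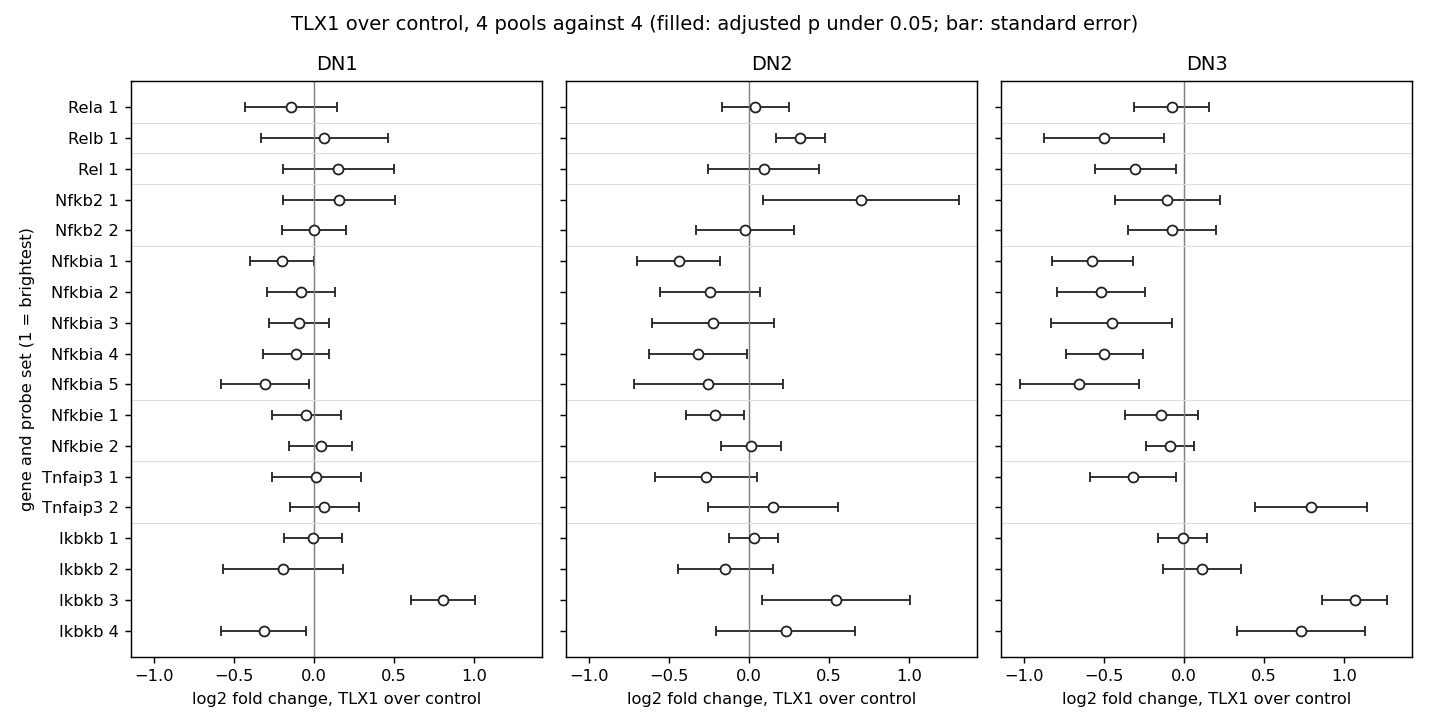
Log2 fold change of TLX1 over control pools (horizontal axes, ± SE) for the 18 NF-κB probe sets at DN1, DN2 and DN3, 4 pools per genotype, drawn filled only where the limma adjusted p was under 0.05. No point is filled, and the third *Ikbkb* probe set lies farthest right at DN1 (0.81) and DN3 (1.07).

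An RNA quality index was lower on average in TLX1 than in control pools at each stage. It was taken as the 3′ over 5′ ratio, in log2 and averaged over *Gapdh* and *Actb*, of the array's own control probe sets. At DN1 it averaged 0.057 ± 0.075 for TLX1 against 0.26 ± 0.16 for control pools (SD, n = 4 each, two-sided exact permutation p = 0.0857). The averages were 0.22 ± 0.11 for TLX1 against 0.52 ± 0.33 at DN2 (exact p = 0.0571), where control pool 3 alone stood at 0.99, and 0.18 ± 0.11 against 0.53 ± 0.030 at DN3 (exact p = 0.0286, the smallest that 4 against 4 can give). In both genotypes the index averaged lower at DN1 than at DN2 or DN3, so it also moved with stage. For DN2 over DN1, *Relb*, *Nfkb2*, *Nfkbia* and *Nfkbie* kept their calls in all 18 alternatives, the index as a covariate among them. *Rel* kept its call in all of its 17, and *Rela* in 17 of 18. The part of the index in the stage changes was not tested further. Within groups the third *Ikbkb* probe set correlated with the index at r = -0.547 over 24 arrays, and the main one at -0.056. The second *Tnfaip3* probe set correlated with the index at -0.389 and its main one at -0.091. For *Nfkbie* the main probe set correlated with the index at 0.494 and the second one at -0.223. With the index as a covariate, the signs of *Rela*, *Nfkbia*, *Nfkbie* and *Ikbkb* at DN1 and of *Nfkbie* at DN3 turned, and none was called. At DN3, where the index itself separated the genotypes, this covariate also moved *Relb* to -2.79 ± 0.61 (SE, adjusted p = 0.618), *Nfkb2* to -1.55, *Rela* to -1.14, *Ikbkb* to -0.69 and *Tnfaip3* to -0.68, and none of these was called. The part of RNA quality in these differences was not tested further. Without control pool 3 the DN2 difference of the index was -0.14, against -0.30 with it.

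Whether the stage changes themselves differed between the genotypes was tested by interaction, and 0 of 18 NF-κB probe sets, like 0% of all 27022, passed for each of the 3 stage steps. At an unadjusted p under 0.05 the NF-κB counts were 0 for DN2 over DN1, 2 for DN3 over DN1 and 0 for DN3 over DN2, beside 3.6%, 3.23% and 2.89% of all probe sets. The 2 were the second *Nfkbia* probe set, whose fall to DN3 was larger in TLX1 pools by -0.44, and the fourth *Ikbkb* probe set, at 1.05 (adjusted p = 0.9998 each). Tested within TLX1 pools alone, 10 NF-κB probe sets were called between DN2 and DN1, beside 47.9% of all probe sets, and within control pools 12, beside 44.7%. Between DN3 and DN2 0 were called in either genotype alone, beside 3.04% of all probe sets in TLX1 and 1.27% in control pools. *Rela* at DN2, at -0.38 in TLX1 pools (adjusted p = 0.0705) and -0.57 in control pools (adjusted p = 0.0125), and *Tnfaip3* at DN3 over DN1, at 0.27 (adjusted p = 0.0935) and 0.60 (adjusted p = 0.00109), passed in control pools only, but neither interaction passed.

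Of the 62 other pathway genes, 0 were called between the genotypes at any stage, beside 0.0037%, 0.0037% and 0.0185% of all probe sets, and 0, 4 and 2 had an unadjusted p under 0.05 at DN1, DN2 and DN3, beside 1.72%, 3.53% and 6.02%. Those with the smallest p at DN1 were *Vcam1* (-0.38), *Cxcl10* (0.53) and *Btrc* (-0.26), each at an adjusted p of 1 by limma. At DN2 they were *Nfkbiz* (-1.02), *Ccl3* (-2.11) and *Tnf* (-1.13), all at an adjusted p of 0.9996 by limma. At DN3 *Ccl3* (-2.14, adjusted p = 0.563), *Nfkbid* (-0.75, adjusted p = 0.819) and *Cd83* (-1.0, adjusted p = 0.847) came first, none past the threshold. *Ccl3* then read 0.783 to 4.99 in TLX1 and 3.64 to 13.7 in control pools and *Cd83* 0.866 to 1.26 and 0.951 to 5.58, all under the array medians, so both differences lie at low signal and depend on the floor.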

How the data were processed

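The authors sorted the cells, labelled 100 ng of total RNA per array, scanned the arrays and made MAS5 signals with Affymetrix Expression Console. The deposited values are linear intensities scaled to a 2% trimmed mean of 150 per array, with 1 value per probe set and array. Their annotation matched 34945 probe sets to 1 gene, 932 to several and 9160 to none. Here, signals under 1 (4.37% to 11.3% of an array) were set to 1 and log2 was taken. Of 45037 probe sets, the 60% with the highest mean, 27022, were kept. A gene's main probe set was its brightest. Genotypes were compared on the 8 arrays of a stage, and stages on all 24 arrays with a fixed block for the pool, using limma 3.58.1 in R 4.3.3 (Benjamini-Hochberg over all 27022, called at an adjusted p under 0.05). Index values were compared by exact permutation. The scripts were tested on simulated data. Genes named are all members, up to 4 called genes with the smallest p per pathway class and stage step, the 3 pathway genes with the smallest p per genotype comparison, and the 5 closest correlates of the member with the widest range. The members, lists and alternatives were chosen with earlier results of these data known. The number of arrays limits the precision. Replicate numbers were not taken to pair TLX1 with control pools as a set: deviations of same-numbered arrays correlated at -0.345 to 0.482, under 0.1 for numbers 2 and 3 at each stage. The pools numbered 4 did deviate together (0.482, 0.402 and 0.365 at DN1, DN2 and DN3). At each stage control pool 4 was the best match of TLX1 pool 4 among the control pools. The pools numbered 1 correlated at 0.127 to 0.186. Stages of a pool correlated at 0.177 to 0.626, and the pool is the same mice. The alternatives were quantile normalization, median centring, no filter, a 40% filter, an offset of 32, and the index or sex as a covariate. Further ones were replicate and random blocks, the methods' unpaired test, the median of a gene's probe sets, and leaving out pools.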

Additional observations from a re-analysis of the deposited data

Results flagged for a closer look

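The search covered 114 groups of 4 pools: the 18 probe sets past the filter and the RNA quality index, each at 3 stages in 2 genotypes. Of these groups, 11 held a pool whose gap to its nearest neighbour exceeded Dixon's critical value, where chance gives about 1 in 20 groups. Pool 4 was the far sample in 7 of them. *Rela* was low in control pool 4 at DN2 (572, the others 840.4 to 884) and in TLX1 pool 4 at DN3 (514, the others 825 to 883). *Tnfaip3* was low in TLX1 pool 4 at DN2 (359, the others 636 to 686), as was the third *Nfkbia* probe set (335, the others 585 to 629). The main *Nfkbie* probe set was high in TLX1 pool 4 at DN3 (1787, the others 1052 to 1117), whereas the second *Nfkbie* probe set was low at DN2 in TLX1 pool 4 (255, the others 362 to 387) and in control pool 4 (262, the others 357 to 376). Over the 6 groups, pool 4 was the highest of its group in 6 for the main *Nfkbie* probe set and the lowest in 5 for the second one. The deviations of the pools numbered 4 from their group means correlated at 0.365 to 0.482. Both were female, as were 2 others, and their index values lay at 0.15 to 0.37 in TLX1 and 0.33 to 0.52 in control pools.

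Control pool 2 was the far sample in 3 groups. *Nfkbia* was high there by its main probe set at DN2 (3642, the others 1641 to 1824) and by probe set 4 at DN3 (753, the others 396 to 429), and the dim *Ikbkb* probe set 4 was low there at DN2 (5.87, the others 19.8 to 22.4). *Nfkb2* was low in control pool 3 at DN3 (71.7, the others 123 to 138).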

How the results depend on the processing

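The TLX1 comparisons of the 8 genes gave 477 alternative values, of which 433 kept their sign, 44 reversed it and 0 were called. The stage comparisons gave 429, of which 368 kept direction and call, 37 lost the call, 11 gained it and 13 reversed, none of these a called result. The count of members called between DN3 and DN2 (5) was 3 with median centring, 2 without a filter, 3 with the pool as a random block, 0 with no replicate block, 3 without the 2 pools with many cells outside the gates, and 2 to 4 when each pool was left out (2 without TLX1 pool 1 or 2). *Nfkb2* lost this call in 8 of 18 alternatives, *Nfkbie* in 10 and *Tnfaip3* in 4, and *Nfkb2* lost that of DN3 over DN1 in 12. The pathway count for this step (6) was 3 without a filter, 3 with the 40% filter and 3 to 6 when each pool was left out (3 without TLX1 pool 1). Members called for DN2 over DN1 ranged over 13 to 15 and for DN3 over DN1 over 11 to 12 when each pool was left out. With the replicate block, 0 members were called between TLX1 and control pools, and the block changed no call.

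Signs turned as follows. With median centring, *Ikbkb* changed by 0.20 for DN2 over DN1, 0.080 for DN3 over DN1 and -0.12 for DN3 over DN2, *Relb* by -0.014 for DN3 over DN2, and *Tnfaip3* by -0.0019 for TLX1 at DN1. With quantile normalization, *Relb* changed by -0.048 for DN3 over DN2 and *Ikbkb* by 0.031 at DN1 and 0.026 at DN3 for TLX1. With the index as a covariate, the TLX1 values at DN1 were 0.13 for *Rela*, 0.18 for *Nfkbia*, 0.17 for *Nfkbie* and 0.093 for *Ikbkb*, that of *Nfkbie* at DN3 was 0.94, and *Tnfaip3* changed by -0.054 for DN2 over DN1. With the median of a gene's probe sets, *Ikbkb* for TLX1 was 0.81 at DN1 and 1.07 at DN3. At DN1 and DN3 this median was, on almost every array, the signal of the dim *Ikbkb* probe set 3. The values therefore repeat those of probe set 3 (0.81 and 1.07) and are not a separate result for the gene. With the same median, *Tnfaip3* was 0.24 for TLX1 at DN3 and -0.023 for DN2 over DN1, and *Nfkbia* 0.045 for DN3 over DN2. Without the 2 pools, the TLX1 values were -0.012 for *Ikbkb* at DN2, -0.11 for *Relb* and -0.048 for *Tnfaip3* at DN1, and the stage values were 0.024 for *Rela* (DN3 over DN2) and -0.068 for *Tnfaip3* (DN2 over DN1). The causes of the other turns were not tested.

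When each pool was left out, TLX1 values at DN1 spanned -0.32 to 0.014 for *Rela*, -0.28 to 0.24 for *Relb*, -0.11 to 0.36 for *Rel*, -0.025 to 0.37 for *Nfkb2*, -0.17 to 0.089 for *Nfkbie*, -0.14 to 0.22 for *Tnfaip3* and -0.098 to 0.073 for *Ikbkb*. At DN2 they spanned -0.11 to 0.18 for *Rela*, -0.16 to 0.41 for *Rel* and -0.041 to 0.14 for *Ikbkb*, and at DN3 -0.23 to 0.11 for *Rela*, -0.32 to 0.18 for *Nfkb2* and -0.073 to 0.11 for *Ikbkb*. Stage values spanned -0.055 to 0.00058 for *Rela* (DN3 over DN2) and -0.026 to 0.070 for *Tnfaip3* (DN2 over DN1). The RNA quality index differed between TLX1 and control pools at DN3 by -0.40 to -0.32 when each pool was left out (exact p = 0.0571, the smallest that 3 against 4 can give) and by -0.35 without the 2 pools (exact p = 0.1). At DN2 it differed by -0.40 to -0.14, the smallest without control pool 3, and by -0.13 without the 2 pools. Array number and the dimness of *Rel*, *Relb* after DN1 and the lesser *Ikbkb* probe sets limit these values.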
